A study of Homo sapiens with 6 samples.

Results

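The brush border genes described here are 10 genes whose proteins build or sit on the microvilli of epithelial cells: MYO7B, USH1C, ANKS4B, CDHR2, CDHR5, VIL1, ESPN, EZR, EPS8 and MEP1B. They were taken by symbol from the deposited count table, in which all 10 were found among 26485 gene symbols. The list was chosen by counts of this same comparison, in which several of the genes were known to differ. Their own values are therefore given as a description and without p-values. Their calls in the test over all genes are likewise a description. RNA was sequenced from 6 cultures of EndoC-βH1, a human line of insulin-secreting beta cells, all carrying the lentiviral vector lentiCRISPRv2, which delivers the Cas9 nuclease and a drug resistance gene. The 3 libraries labelled sgZHX3-3 (genotype label ZHX3 KO) came from cells whose vector held a guide against the first coding exon of ZHX3, a protein with zinc fingers and homeodomains. The 3 libraries labelled Empty (genotype label WT) came from cells whose vector held no guide. Stable lines of both kinds were obtained by antibiotic selection. Whether the numbered biological replicates are separately made lines is not said, so the spread given below may be that between cultures of the same line, and all libraries of the guide group share a single guide.

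Microvilli are finger-like protrusions of the apical membrane, each with a core of bundled actin filaments. In the brush border of gut and kidney, the cadherins CDHR2 and CDHR5 join the tips of neighbouring microvilli, and the scaffold proteins USH1C (harmonin) and ANKS4B anchor them to the motor MYO7B, which together form the intermicrovillar adhesion complex. Villin (VIL1) and espin (ESPN) bundle the actin core, EPS8 caps filament ends at the tip, ezrin (EZR) ties actin to the membrane, and MEP1B is the beta subunit of meprin, a metalloprotease of the brush border surface.

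ZHX3 RNA was higher in the libraries labelled sgZHX3-3, at 167, 180 and 183 CPM (counts scaled to library size), against 106, 110 and 101 CPM in the libraries labelled Empty, so the groups are named by their labels throughout and each direction is drawn from those labels. Libraries held 45101454 to 61051884 counts. Empty 1 stood apart from Empty 2 and 3, with a distance over all tested genes (chi-square per gene) of 23.3 and 22.3 from them. Its distance from sgZHX3-3 libraries 1, 2 and 3 was 18.9, 21.5 and 28.9. Empty 2 and 3 were 3.63 apart. The sgZHX3-3 library 3 was at 21.4 and 12.9 from libraries 1 and 2 of its group, which were 4.56 apart. A list of 16 oxidative and heat stress genes summed to 1600, 1646 and 1456 CPM in the sgZHX3-3 libraries, and to 1890, 2877 and 3154 CPM in Empty 1, 2 and 3. In that list 9 genes were lower by edgeR at an adjusted p below 0.05, where 4.98% of all tested genes were; 12 were lower by DESeq2, 5 by limma-voom and 5 by edgeR without Empty 2 and 3. None was higher: edgeR, DESeq2 and limma-voom each called 0 higher, and 0 were higher at an unadjusted p below 0.05. The called genes described below are therefore given also without Empty 2 and 3; the part of the stress genes in them was not tested. The beta cell label was matched by its markers: 10 of them summed to 37047 to 45140 CPM in the sgZHX3-3 libraries and 31835 to 39886 CPM in the Empty libraries, none at 0, and 8 were higher by edgeR, or 1 without Empty 2 and 3 (0 lower, also 0 at an unadjusted p below 0.05 and by DESeq2 and limma-voom).

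MYO7B had the largest rise of the 10 genes. It stood at 34.1, 36.6 and 36.1 CPM in the libraries labelled sgZHX3-3, from 1523, 1824 and 2177 counts, against 19.8, 20.2 and 19.4 CPM in Empty, from 926, 1193 and 951 counts. All sgZHX3-3 libraries lay above all Empty libraries, and Empty 1 lay between Empty 2 and 3. The mean was 35.6 ± 1.33 CPM in sgZHX3-3 and 19.8 ± 0.397 CPM in Empty (SD, n = 3 each), a log2 fold change of 0.85 (standard error 0.0645), or 1.80-fold. That value was higher than the log2 fold change of 99.0% of the 16199 genes tested. It was 0.85 with Empty 2 and 3 left out and 0.83 to 0.88 with any 1 library left out. MYO7B (ENSG00000169994.18 in GENCODE 29) lies on the plus strand of chromosome 2 from 127535802 to 127637729 in GRCh38.

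CDHR2 followed with a log2 fold change of 0.58 (standard error 0.0538). This cadherin was at 117, 123 and 120 CPM in the sgZHX3-3 libraries, against 83.9, 79.0 and 78.7 CPM in Empty 1, 2 and 3. The groups did not overlap, and the change was 0.52 with Empty 2 and 3 left out. Its partner CDHR5 stood at 96.1, 96.3 and 103 CPM in sgZHX3-3, against 85.3, 76.4 and 75.3 CPM in Empty 1, 2 and 3. CDHR5 differed by 0.32 (standard error 0.0622); the groups did not overlap, but Empty 1 lay closer to the sgZHX3-3 libraries than the other Empty libraries did. With Empty 1 as the only Empty library the difference was 0.21. CDHR2 lies on chromosome 5 from 176542511 to 176595974 (plus strand) and CDHR5 on chromosome 11 from 616565 to 626078 (minus strand).

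The scaffold USH1C was at 161, 170 and 185 CPM in sgZHX3-3, against 145, 134 and 131 CPM in Empty, a log2 fold change of 0.33 (standard error 0.0632). The groups did not overlap, the lowest sgZHX3-3 library being library 1 and the highest Empty library being Empty 1. The change was 0.25 without Empty 2 and 3. ANKS4B, the scaffold that joins USH1C to MYO7B, stood at 96.0, 99.1 and 96.1 CPM in sgZHX3-3, against 96.5, 84.4 and 87.2 CPM in Empty 1, 2 and 3. Empty 1 lay inside the range of the sgZHX3-3 libraries, and the log2 fold change was 0.12 (standard error 0.0599), or 0.0097 without Empty 2 and 3. USH1C lies on chromosome 11 from 17493895 to 17544416 (minus strand) and ANKS4B on chromosome 16 from 21233665 to 21253845 (plus strand).

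The genes of the complex thus differed in size of change within the same libraries. The ratio of MYO7B counts to ANKS4B counts was 0.355, 0.369 and 0.376 in sgZHX3-3 and 0.205, 0.239 and 0.222 in Empty. MYO7B over USH1C was 0.212, 0.215 and 0.195 in sgZHX3-3 and 0.136, 0.150 and 0.148 in Empty. CALML4, the light chain that binds MYO7B, did not pass the test (log2 fold change 0.08, edgeR adjusted p = 0.644): it was at 14.0, 15.7 and 13.3 CPM in sgZHX3-3 and 11.9, 14.9 and 13.7 CPM in Empty. MYO7B over CALML4 averaged 2.50 ± 0.201 in sgZHX3-3 and 1.48 ± 0.170 in Empty (SD, n = 3 each). These ratios show unequal change among the genes and follow from the values that chose them. CALML4 was named after its values were seen.

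**Figure D1:**
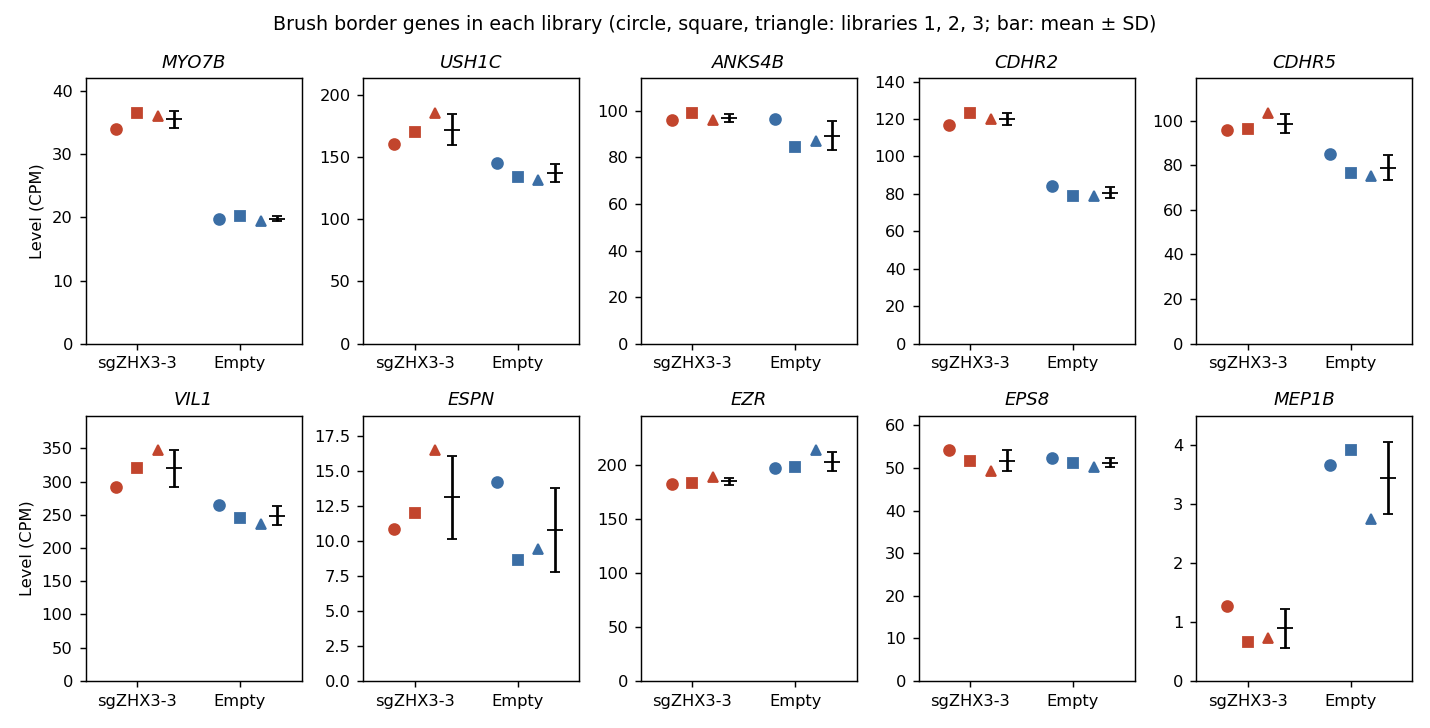
Level in CPM (vertical axis, from 0) of each of the 10 genes in the 3 libraries labelled sgZHX3-3 (red) and the 3 labelled Empty (blue), with circles, squares and triangles for libraries 1, 2 and 3 and a black bar for the mean ± SD. MYO7B, CDHR2 and MEP1B show the widest gaps between groups, while ANKS4B, ESPN and EPS8 overlap.

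Starts of 6 of the 10 genes were found among the RefSeq promoter sequences of GRCh38.p14 (MYO7B, USH1C, ANKS4B, CDHR2, EZR and MEP1B, 9 starts in all); CDHR5, VIL1, ESPN and EPS8 were not. The 250 bases before each start were searched on both strands for the core of HNF4 factors (CAAAGTC), the core of CDX factors (TTTATNG), the GATA motif (AGATAA), the NF-Y box (CCAAT), the AP-1 site (TGANTCA), the core of the antioxidant response element (TGACNNNGC) and the Sp1 box (GGGCGG). The sequences with an HNF4 match are shown with the match in capitals, beside that of MEP1B, the gene of opposite direction.
MYO7B, chr2:127535433-127535682, plus strand: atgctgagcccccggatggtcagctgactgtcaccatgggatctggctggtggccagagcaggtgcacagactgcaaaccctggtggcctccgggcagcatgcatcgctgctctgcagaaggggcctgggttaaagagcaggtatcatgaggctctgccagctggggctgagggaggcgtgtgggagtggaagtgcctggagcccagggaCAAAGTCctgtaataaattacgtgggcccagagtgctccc
CDHR2, second start, chr5:176549092-176549341, plus strand: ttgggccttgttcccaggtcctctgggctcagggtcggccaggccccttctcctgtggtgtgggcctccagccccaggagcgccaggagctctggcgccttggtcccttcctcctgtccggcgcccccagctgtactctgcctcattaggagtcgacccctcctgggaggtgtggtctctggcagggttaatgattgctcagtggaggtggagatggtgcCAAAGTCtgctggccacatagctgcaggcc
MEP1B, chr18:32189789-32190038, plus strand: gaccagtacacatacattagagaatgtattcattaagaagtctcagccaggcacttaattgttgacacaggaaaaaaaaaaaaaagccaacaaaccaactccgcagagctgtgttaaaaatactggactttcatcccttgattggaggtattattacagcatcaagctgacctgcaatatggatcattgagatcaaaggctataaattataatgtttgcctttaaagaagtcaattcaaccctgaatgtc

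The HNF4 core stood at −40 to −34 from the first start of MYO7B and at −30 to −24 from the second start of CDHR2. Of all 35116 promoter windows of this length, 2.91% held the HNF4 core; 2 of the 9 windows of the brush border genes did. The other windows had no such match, among them the second start of MYO7B and the first start of CDHR2. The Sp1 box was found in 3 of the 9 windows (42.6% of all windows): in the second start of MYO7B, 3 times in the first start of USH1C, and 3 times in EZR, where 2 of the matches overlap by a base. An AP-1 site was found in EZR alone (6.57% of all windows), the NF-Y box (32.0%) and the CDX core (8.93%) in MEP1B alone, and no window held the GATA motif (9.17%) or the antioxidant core (10.9%). A match is a string of letters in the reference sequence, and its part in the levels was not tested. The second starts of MYO7B, USH1C and CDHR2 and the starts of ANKS4B, EZR and MEP1B lie inside the genes as GENCODE 29 draws them.

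**Figure D2:**
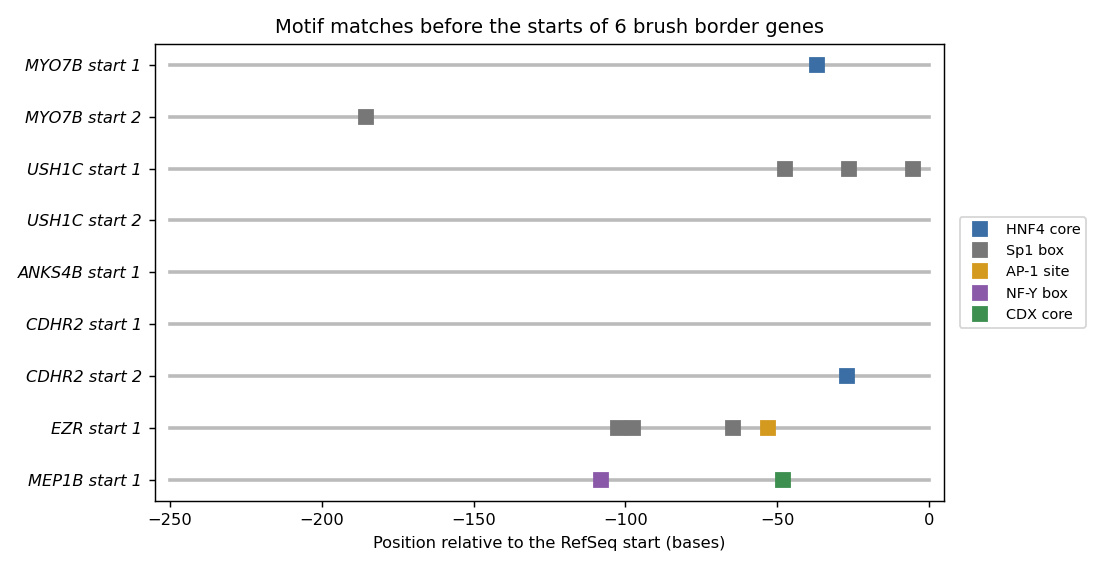
Position of motif matches (coloured squares) in the 250 bases before each of 9 RefSeq starts of 6 brush border genes; the horizontal axis gives the distance from the start in bases. HNF4 matches lie within the last 40 bases before the starts of MYO7B (first start) and CDHR2 (second start).

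Among the genes of the actin core, villin was the only one higher without overlap between the groups. VIL1 stood at 292, 320 and 347 CPM in sgZHX3-3, against 265, 245 and 236 CPM in Empty 1, 2 and 3, a log2 fold change of 0.36 (standard error 0.0668). Empty 1 again lay nearest to the sgZHX3-3 libraries, and the difference was 0.27 without Empty 2 and 3. VIL1 lies on chromosome 2 from 218419092 to 218453295 (plus strand).

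Espin varied more within the groups than between them. ESPN was at 10.8, 12.0 and 16.5 CPM in sgZHX3-3 libraries 1, 2 and 3, and at 14.2, 8.67 and 9.47 CPM in Empty 1, 2 and 3. Its highest values were those of sgZHX3-3 library 3 and Empty 1, so the groups overlapped widely: the mean was 13.1 ± 2.98 CPM in sgZHX3-3 and 10.8 ± 3.01 CPM in Empty (SD, n = 3 each). The log2 fold change was 0.29 (standard error 0.216) with all libraries, 0.55 without Empty 1 and −0.11 without Empty 2 and 3. Reads of ESPN could be shared with its pseudogene ESPNP, which had 2, 6 and 6 counts in sgZHX3-3 and 3, 2 and 0 in Empty, so ESPN is uncertain.

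Ezrin and EPS8 differed little. EZR was at 183, 184 and 189 CPM in sgZHX3-3, against 198, 198 and 214 CPM in Empty, a log2 fold change of −0.14 (standard error 0.0519). Its sgZHX3-3 libraries all lay below the Empty libraries, but it did not pass the edgeR threshold, except under scaling by library totals alone (−0.17). EPS8 was at 54.1, 51.7 and 49.2 CPM in sgZHX3-3 and 52.3, 51.2 and 50.3 CPM in Empty, with the Empty values inside the range of the sgZHX3-3 ones. Its log2 fold change of 0.01 (standard error 0.0579) changed sign with the scaling and with the libraries used. EZR lies on chromosome 6 from 158765741 to 158819412 and EPS8 on chromosome 12 from 15620158 to 15882329, both on the minus strand.

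MEP1B was the only gene of the 10 that was lower by more than 2-fold. It had 57, 33 and 44 counts in the sgZHX3-3 libraries, or 1.28, 0.662 and 0.730 CPM, against 171, 231 and 135 counts in Empty, or 3.66, 3.90 and 2.75 CPM. Every sgZHX3-3 library lay below every Empty library. The means were 0.889 ± 0.336 CPM in sgZHX3-3 and 3.44 ± 0.608 CPM in Empty (SD, n = 3 each), a log2 fold change of −1.97 (standard error 0.231), or 3.93-fold lower. The difference was −2.06 without Empty 2 and 3 and lay between −2.30 and −1.81 with any 1 library left out. MEP1A, the other meprin subunit, had no count in any library. MEP1B lies on the plus strand of chromosome 18 from 32185069 to 32220404 and overlaps GAREM1 on the minus strand, listed as GAREM, which averaged 33.2 CPM in sgZHX3-3 and 39.8 CPM in Empty.

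By the edgeR test across all genes, 5 of the 10 were called higher (MYO7B, CDHR2, VIL1, USH1C and CDHR5) and 1 lower (MEP1B), where 7.11% of all tested genes were called higher and 4.98% lower. The groups did not overlap for 5 higher and 2 lower genes of the 10, against 16.0% of all tested genes in each direction. Since the genes were chosen with this contrast known, nothing is read from these counts. All 10 passed the filter on low counts, and the lowest count of any of them was 33 (MEP1B). The weakest called rise among them was CDHR5 at 0.32, and the highest fold change of a gene that was not called was that of ESPN at 0.29. With Empty 2 and 3 left out, the log2 fold changes were 0.85 for MYO7B, 0.52 for CDHR2 and −2.06 for MEP1B. They were 0.27 for VIL1, 0.25 for USH1C and 0.21 for CDHR5.

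**Figure D3:**
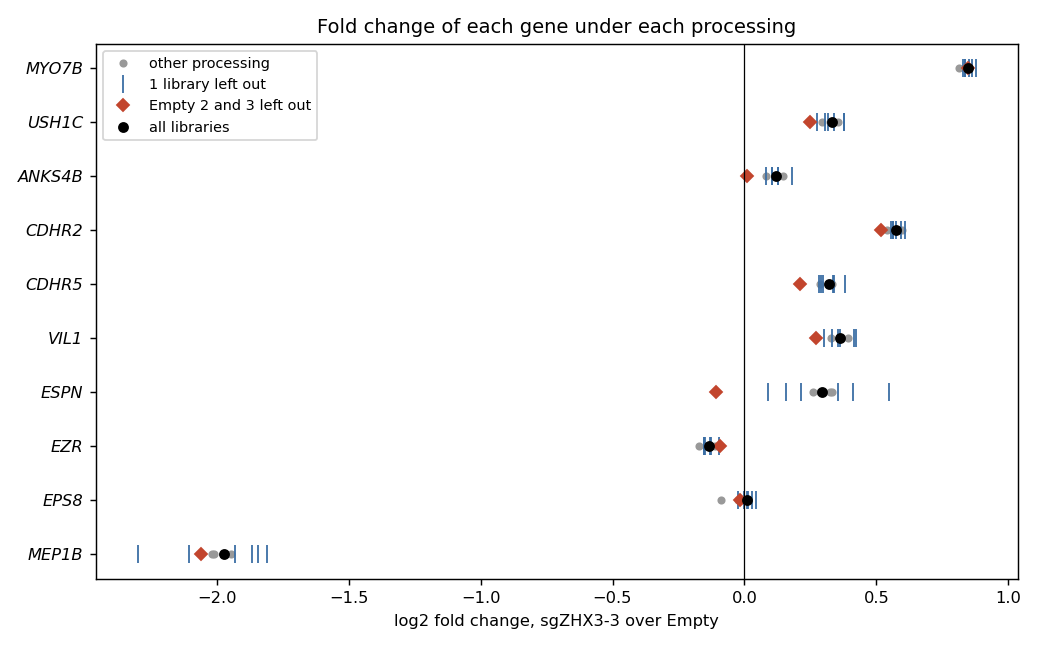
Log2 fold change (horizontal axis, sgZHX3-3 over Empty) of each gene with all libraries (black), with any 1 library left out (blue bars), with Empty 2 and 3 left out (red diamonds) and under other processing (grey). MYO7B stays between 0.81 and 0.88, while ESPN ranges from −0.11 to 0.55 and EPS8 lies on both sides of 0.

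Per kb of exon, ezrin was the most abundant of the 10 and meprin beta the least. In sgZHX3-3 the order of levels was EZR (55.4 ± 0.940 CPM per kb), VIL1 (46.2 ± 3.95), USH1C (35.1 ± 2.53), CDHR5 (25.5 ± 1.09), CDHR2 (22.4 ± 0.581), ANKS4B (22.3 ± 0.406), EPS8 (5.95 ± 0.283), MYO7B (4.05 ± 0.152), ESPN (1.89 ± 0.428) and MEP1B (0.344 ± 0.130; SD, n = 3 each). In Empty it was EZR (60.8 ± 2.70 CPM per kb), VIL1 (35.9 ± 2.13), USH1C (27.9 ± 1.49), ANKS4B (20.5 ± 1.45), CDHR5 (20.4 ± 1.41), CDHR2 (15.1 ± 0.551), EPS8 (5.90 ± 0.119), MYO7B (2.25 ± 0.0451), ESPN (1.55 ± 0.433) and MEP1B (1.33 ± 0.235). Of the neighbours in these orders, CDHR2 and ANKS4B overlapped in range over the sgZHX3-3 libraries, and ANKS4B and CDHR5 as well as ESPN and MEP1B overlapped over the Empty libraries. MYO7B was thus well below its partners in level per kb in both groups, ranking above 44.1% of 15041 genes with a known exon length in sgZHX3-3 and 32.6% in Empty. When the longest transcript was used as the length, 6 of the 10 kept their place in Empty: VIL1 and USH1C changed places, as did ANKS4B and CDHR5.

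**Figure D4:**
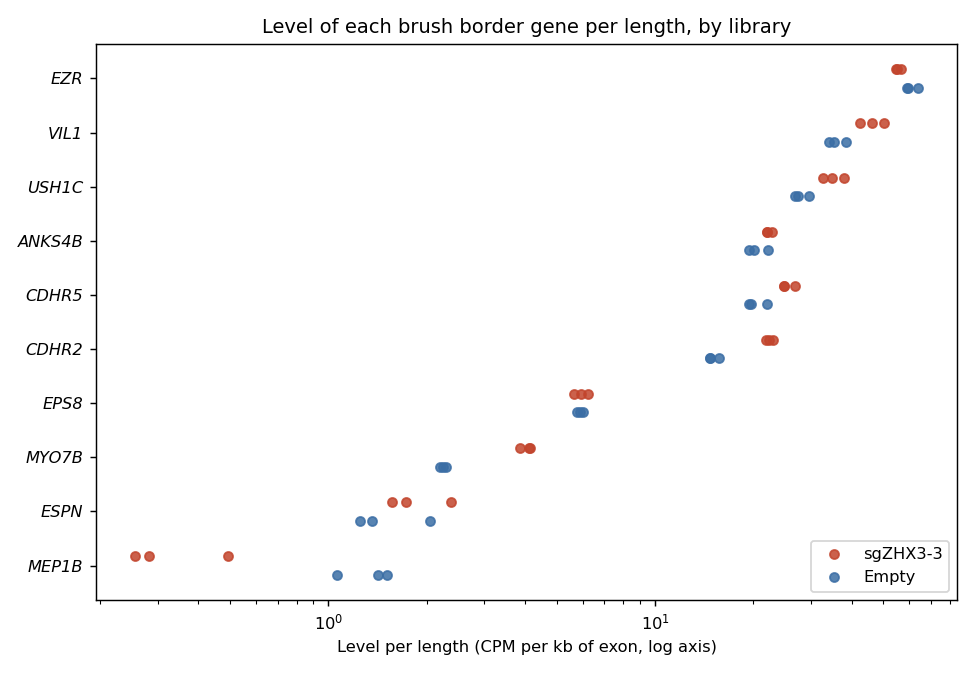
Level per length of each gene in every library (horizontal log axis, CPM per kb of exon) for libraries labelled sgZHX3-3 (red, upper row of each gene) and Empty (blue, lower row). The adhesion genes other than MYO7B lie between about 15.1 and 35.1 CPM per kb by group mean, and MYO7B lies at 4.05 in sgZHX3-3 and 2.25 in Empty.

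The genes whose levels moved most like MYO7B over the 6 libraries, among 14053 genes averaging 1 CPM or more, were ABCC8 (Pearson r = 0.9988 in log2 CPM), NUP210 (0.9986), SEZ6 (0.9982), ZMIZ1 (0.9978) and ZHX3 itself (0.9977). ABCC8, the sulfonylurea receptor of the beta cell potassium channel, stood at 755, 776 and 763 CPM in sgZHX3-3 and 545, 557 and 536 CPM in Empty. These correlations describe 6 libraries that fall into 2 groups. With the group means removed they were 0.819, 0.939, 0.899, 0.737 and 0.940 in the same order. The genes were picked by their correlation with MYO7B over the same libraries, which favours high values here too. The values with group means removed are therefore no separate check, and whether these genes vary with MYO7B inside the groups was not tested. Among the 10 genes, CDHR2 was the most like MYO7B (r = 0.9938) and MEP1B the most opposed (r = −0.9610). With the group means removed this order turned: VIL1 was at 0.670, USH1C at 0.565 and CDHR2 at 0.512, and MEP1B was at −0.563 and EPS8 at −0.522.

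Brush border genes outside the 10 were read from lists of cytoskeletal proteins and of enzymes and transporters. Of 44 tested genes in the 2 lists, 10 were higher and 0 lower by edgeR at an adjusted p below 0.05, beside 7.11% higher and 4.98% lower among all tested genes. At an unadjusted p below 0.05, 13 were higher and 4 lower; DESeq2 called 12 higher and limma-voom 11, and both called 0 lower. The median log2 fold change was 0.10, beside −0.0020 over all genes. The count of higher genes depended on single libraries: it was 5 without Empty 2, without Empty 3 or without sgZHX3-3 library 2, and 2 without both Empty 2 and 3, while without Empty 1 it was 14, with 3 lower. After an offset for gene span, 6 were higher and 1 lower.

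Of 25 listed genes of the microvillar cytoskeleton, 22 were tested and 4 rose (MYO5B, MYO1D, PDZK1 and CAPZB), with a list median of 0.07. MYO5B, a motor that carries membrane vesicles to the apical surface, rose by 0.34 (standard error 0.0537, edgeR adjusted p = 0.0017), at 75.0, 74.6 and 73.0 CPM in sgZHX3-3 and 57.2, 60.8 and 57.7 CPM in Empty. It passed in every fit that omitted 1 library, and the change was 0.21 after an offset for gene span. The scaffold PDZK1, at 60.6, 61.6 and 56.6 CPM in sgZHX3-3 and 53.0, 50.5 and 50.8 CPM in Empty, rose by 0.21 (edgeR adjusted p = 0.0315), and the membrane-bound motor MYO1D rose by 0.21 (edgeR adjusted p = 0.0168). Neither passed when the fit omitted Empty 2 (adjusted p = 0.126 for PDZK1 and 0.084 for MYO1D), Empty 3 (0.132 and 0.0855) or sgZHX3-3 library 2 (0.162 and 0.103). PDZK1 also did not pass when it omitted sgZHX3-3 library 1 (0.0749). After an offset for gene span MYO1D was at 0.07 and did not pass (0.398). CAPZB, a subunit of the actin capping protein, rose by 0.23 (adjusted p = 0.0268) but did not pass with the fit lacking Empty 2 (0.134), Empty 3 (0.131), sgZHX3-3 library 2 (0.106) or sgZHX3-3 library 3 (0.0714), nor after an offset for gene span (0.0897). Without both Empty 2 and 3, MYO5B passed (0.38, adjusted p = 0.0493), and PDZK1 (0.17, 0.394), MYO1D (0.18, 0.267) and CAPZB (0.11, 0.511) did not. NHERF1, a scaffold bound by ezrin, was at 0.30 (adjusted p = 0.0786) and did not pass, nor did plastin 1 (PLS1; −0.05, adjusted p = 0.643), the third bundling protein of the microvillus core. PLS1 was named after its values were seen.

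Of 33 listed brush border enzymes and transporters, 22 were tested, 6 rose and 0 fell, with a list median of 0.21; 2 of the tested genes were lower at an unadjusted p below 0.05, and DESeq2 and limma-voom each called 7 higher and 0 lower. In this list 18 genes stayed under 1 CPM in every library, and MEP1A, ENPEP and MUC17 had no count. SLC6A19, a transporter of neutral amino acids, was at 11.3, 13.8 and 15.5 CPM in sgZHX3-3 and 7.12, 5.46 and 5.30 CPM in Empty, a rise of 1.19 (standard error 0.135, edgeR adjusted p = 0.000229). The peptidase MME (neprilysin) rose by 0.50 (standard error 0.0698, edgeR adjusted p = 0.000765), at 28.4, 25.5 and 26.6 CPM in sgZHX3-3 and 19.4, 18.4 and 18.9 CPM in Empty. ACE, the angiotensin-converting enzyme, rose by 0.41 (adjusted p = 0.0041) and CDH17, a cadherin of liver and intestine, by 0.30 (adjusted p = 0.00536). These 4 passed in every fit that omitted 1 library. Without Empty 2 and 3, SLC6A19 was at 0.93 (adjusted p = 0.0347), and MME (0.46, 0.0666), ACE (0.28, 0.224) and CDH17 (0.19, 0.21) did not pass. The maltase-glucoamylase MGAM rose by 0.25 (adjusted p = 0.0142) but did not pass with the fit lacking Empty 2 (0.0794), Empty 3 (0.0877) or sgZHX3-3 library 2 (0.0582), nor after an offset for gene span (0.18, 0.0688) or without both Empty 2 and 3 (0.17, 0.353). The endocytic receptor LRP2 rose by 1.14 at levels under 1 CPM (adjusted p = 0.0359) and passed, of the fits that omitted 1 library, in that without Empty 1 alone (adjusted p from 0.073 to 0.16 in the others). It was at 1.05 after an offset for gene span (0.057) and 0.48 without both Empty 2 and 3 (0.604), not passing in either. Not passing were DPP4 (−0.05, adjusted p = 0.67), AMN (0.24, 0.238) and SLC7A9 (0.11, 0.371).

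**Figure D5:**
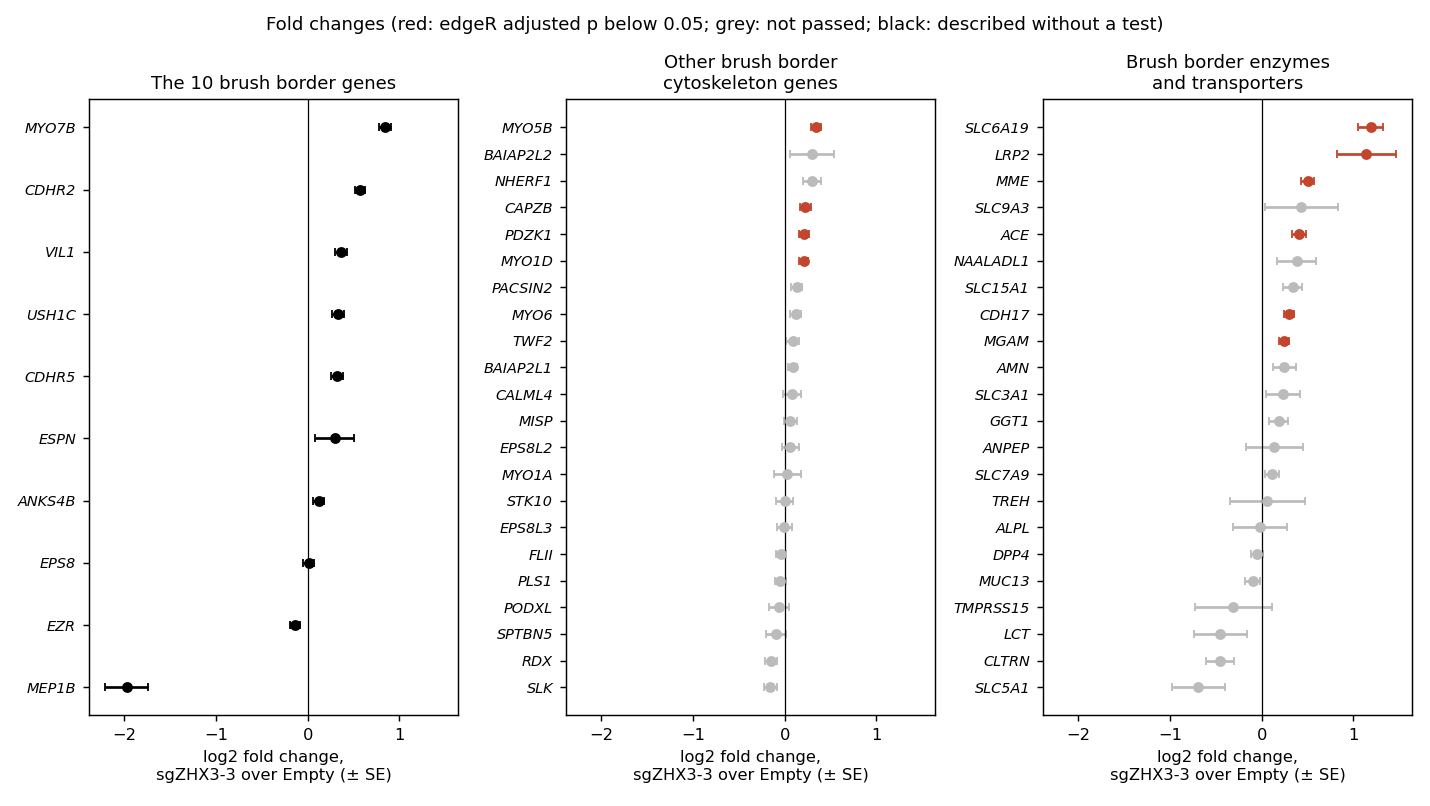
Log2 fold change with standard error (horizontal axis, sgZHX3-3 over Empty) of the 10 genes (black, described without a p-value). Beside them are 22 other genes of the brush border cytoskeleton and 22 brush border enzymes and transporters (red where the edgeR adjusted p was below 0.05, grey otherwise). The 10 red genes of the right-hand panels all lie above 0.

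Of 18 tested relatives of the 10 genes, 1 was higher, 2 were lower and 15 did not pass, beside 7.11% higher and 4.98% lower among all tested genes. The photoreceptor cadherin CDHR1 rose by 0.38 (edgeR adjusted p = 0.00307), the cadherin CDHR3 fell by 0.40 (adjusted p = 0.00406), and the villin relative SCIN fell by 0.27 (adjusted p = 0.0181). SCIN did not pass when the fit omitted Empty 2 (0.0701), Empty 3 (0.0825) or sgZHX3-3 library 2 (0.0649). Without both Empty 2 and 3, CDHR1 passed (0.46, 0.0467), and CDHR3 (−0.33, 0.164) and SCIN (−0.29, 0.19) did not. MYO7A, the closest relative of MYO7B and a motor of the hair bundle of the inner ear, was at 25.0, 28.9 and 28.4 CPM in sgZHX3-3 and 21.6, 25.9 and 23.6 CPM in Empty, overlapping in range (0.21, adjusted p = 0.118). The EZR relative RDX (−0.15, adjusted p = 0.152) and the EPS8 relatives EPS8L2 (0.06, 0.696) and EPS8L3 (−0.0019, 0.992) did not pass; RDX was called lower without Empty 1 (0.0106) and after an offset for gene span (−0.30, 0.00957).

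In the hair bundle of the inner ear, USH1C works with MYO7A and CDH23 in a complex built like that of the brush border. Of 15 tested hair bundle genes, 2 were higher and 0 lower by edgeR, beside 7.11% and 4.98% of all tested genes, with 6 higher and 0 lower at an unadjusted p below 0.05 and 2 and 0 by DESeq2 and limma-voom. CDH23, the cadherin of the tip link, was at 8.10, 9.64 and 7.68 CPM in sgZHX3-3 and 4.08, 4.56 and 4.07 CPM in Empty, a rise of 1.00 (standard error 0.116, edgeR adjusted p = 0.000267) that passed in every fit omitting 1 library. It was 1.05 without Empty 2 and 3 (adjusted p = 0.0182) and 0.85 after an offset for gene span. The very large receptor ADGRV1 rose by 0.28 (adjusted p = 0.0301) but did not pass with the fit lacking Empty 3 (0.123), sgZHX3-3 library 2 (0.116) or sgZHX3-3 library 3 (0.0867), nor after an offset for gene span (0.09, 0.465). Without both Empty 2 and 3 it was at 0.44 (0.0378). PCDH15, the partner of CDH23, had no count.

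Of 20 tested actin bundlers, actins, capping proteins and formins, 2 were higher (DIAPH2 and CAPZB), 2 lower (PLS3 and DIAPH3) and 16 did not pass, beside 7.11% higher and 4.98% lower among all tested genes. The formin DIAPH2 rose by 0.42 (edgeR adjusted p = 0.00188), or 0.18 after an offset for gene span (0.0842), and PLS3, a plastin found outside the brush border too, fell by 0.32 (adjusted p = 0.00593). DIAPH3 fell by 0.31 (adjusted p = 0.029) but did not pass with the fit lacking Empty 2 (0.133), Empty 3 (0.116), sgZHX3-3 library 2 (0.0718) or sgZHX3-3 library 3 (0.0857). Without both Empty 2 and 3 none of these genes passed: DIAPH2 was at 0.44 (0.0693), PLS3 at −0.26 (0.199) and DIAPH3 at −0.18 (0.505). Of 20 genes of apical trafficking and polarity 2 were higher, MYO5B and the polarity scaffold PARD3 (0.39, adjusted p = 0.00188), and 0 lower, beside the same 7.11% and 4.98%. PARD3 was at 0.18 after an offset for gene span (0.0777) and at 0.38 without Empty 2 and 3 (0.0899), so MYO5B alone of that list passed there. In that list 2 were lower at an unadjusted p below 0.05, and DESeq2 and limma-voom each called 1 lower.

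Among transcription factors of gut and pancreatic epithelium, GATA4 was higher and KLF5 lower. GATA4 rose by 0.27 (adjusted p = 0.014) but did not pass with the fit lacking Empty 2 (0.0768), Empty 3 (0.0877) or sgZHX3-3 library 2 (0.0758). KLF5 fell by 0.21 (adjusted p = 0.0341) and, of the fits that omitted 1 library, passed without Empty 1 or sgZHX3-3 library 3 (adjusted p from 0.0827 to 0.161 in the others); it was at −0.18 after an offset for gene span (0.051). Without both Empty 2 and 3, GATA4 was at 0.16 (0.384) and KLF5 at −0.21 (0.3), and neither passed. HNF4A, named after its values were seen, did not pass (0.09, adjusted p = 0.335), at 107, 107 and 114 CPM in sgZHX3-3 and 106, 98.6 and 104 CPM in Empty. CDX1 had no count, and CDX2 was at 0.41 (adjusted p = 0.0631).

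Markers of gut, kidney tubule and pancreatic acinar cells were present in part. Of 13 enterocyte markers, which share CDH17, ALPI, SI and LCT with the list of enzymes and transporters, the summed level was 573 to 581 CPM in sgZHX3-3 and 467 to 532 CPM in Empty, carried mostly by CDH17 and the receptor GUCY2C (0.04, edgeR adjusted p = 0.716). FABP1 and CDX1 were at 0 in every library, and 8 of the 13 stayed under 1 CPM. CDH17 was higher and 0 were lower (1 at an unadjusted p below 0.05; 0 by DESeq2 and limma-voom). Kidney tubule markers summed to 17.9 to 19.4 CPM in sgZHX3-3 and 16.0 to 16.6 CPM in Empty, with SLC22A6 and UMOD at 0. MIOX carried most of that sum, at means of 15.4 CPM in sgZHX3-3 and 11.5 CPM in Empty. Of 4 tested, LRP2 and MIOX were higher and SLC12A1 lower. MIOX (0.41, adjusted p = 0.012) did not pass without Empty 2 (0.0503) or sgZHX3-3 library 2 (0.0784), and without both Empty 2 and 3 none of the kidney markers was called higher, while SLC12A1 was still lower (−2.41, 0.00558). The enterocyte and kidney sums were both higher in every sgZHX3-3 library than in any Empty library. So was that of acinar markers (43.5 to 46.9 against 34.3 to 40.6 CPM, with PNLIP at 0), carried mostly by CPA1 (means 43.5 and 35.1 CPM). CPA1, the acinar marker called higher (0.31, 0.0145), did not pass without Empty 2 (0.0833), Empty 3 (0.0855), sgZHX3-3 library 2 (0.0637) or both Empty 2 and 3 (0.413). Their part in the results was not tested. In RNA from whole cultures, more cells of a kind cannot be told apart from more RNA per cell.

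Markers of duct (73.1 to 77.8 CPM in sgZHX3-3 and 66.7 to 74.2 CPM in Empty), of other islet cells (37.8 to 46.7 and 39.5 to 48.5 CPM), of mesenchyme (6.42 to 8.60 and 5.99 to 6.86 CPM) and of immune cells (19.1 to 23.0 and 14.2 to 19.7 CPM) overlapped between the groups. Endothelial markers summed to at most 0.0802 CPM, and none was tested. With all libraries, edgeR called 0 genes of the duct, other islet, mesenchymal and immune lists, as did DESeq2 and limma-voom. At an unadjusted p below 0.05 the duct, other islet and immune lists each had 1 higher gene. The duct marker MMP7 and the immune marker CD3E were at 0 in every library. The immune markers CD68 and CD14 had log2 fold changes of 0.30 and 0.14 with all libraries. These were 0.66 and 0.10 without Empty 2 and 3.

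Some of the 10 genes overlap others in GENCODE 29, and whether the counting used strand is not stated in the labels, so their counts are uncertain where they overlap. Of the partners on the other strand, CRYM (with ANKS4B) was at 0.13, GPRIN1 (with CDHR2) at 0.06, USP37 (with VIL1) at −0.18 and GAREM (with MEP1B) at −0.26 in log2 fold change, against 0.12 for ANKS4B, 0.58 for CDHR2, 0.36 for VIL1 and −1.97 for MEP1B. TNFRSF25 (with ESPN) and EZR-AS1 (with EZR) averaged under 1 CPM in each group. MYO7B overlaps an antisense gene on the minus strand, whose counts were not used here.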

How the data were processed

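RNA was measured in 3 libraries labelled sgZHX3-3 and 3 labelled Empty. Stranded libraries were made from kit-extracted total RNA, per the labels' protocols. The submitters' processing notes name STAR, hg38 and featureCounts; settings and the use of strand are not given in sources used here. CPM values use TMM-scaled library sizes. The authors deposited 1 whole-number count per gene symbol and library, unnormalized, per the file headers, and each column was matched to its title by group and letter.

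Everything else was derived from that count table. Genes were kept by filterByExpr (minimum count 10, minimum total 15), which left 16199 of 26485; all 10 genes were kept. Library sizes were scaled by TMM (factors 0.984 to 1.02). Over all genes, sgZHX3-3 was compared with Empty by the robust quasi-likelihood test of edgeR, without covariates; p-values were adjusted by Benjamini-Hochberg with a threshold of 0.05, and standard errors were computed as the size of the log2 fold change over the root of F. No 2 libraries differed by as little as sampling noise (chi-square per gene of at least 3.63). Exon lengths and positions are from GENCODE 29 (GRCh38; 90.0% of symbols matched), promoters from RefSeq (GRCh38.p14). Some values of the lists are not reported here. The members and lists were chosen with earlier results of these data known. Named genes are the 10, ZHX3, up to 5 called and 3 uncalled genes a list, family relatives and the 5 genes most like MYO7B. Counts were simulated for this comparison (16180 genes, a 2-fold change in 68 of them). On these the procedure recovered 100% of genes changed 2-fold and 41.9% of those changed 1.25-fold. The simulation gave every gene the same relative spread beyond sampling noise and set no library of a group apart. It changed only genes of higher counts, so these rates need not hold for the real libraries or for genes with low counts. Alternatives were DESeq2, limma-voom, RLE factors, library totals, no filter, a minimum of 1 CPM in 3 libraries, a replicate block, each library left out, Empty 2 and 3 left out, an offset for gene span, an adjusted p below 0.01, a log2 limit of 1 and another length. Python 3.11.15 with pandas 2.3.3 and matplotlib 3.10.9 was used beside DESeq2 1.42.0, limma 3.58.1 and edgeR 4.0.16 in R 4.3.3.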

Additional observations from a re-analysis of the deposited data

How the results depend on the processing

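Since this comparison chose the 10 genes, the counts of their calls are a description. Scaling by library totals alone gave 2 lower, and a log2 limit of 1 gave 0 higher. With any 1 library left out, 5 to 7 of the 10 were higher and 1 lower. Without Empty 2 and 3, the log2 fold changes of USH1C, CDHR5 and VIL1 were smaller, at 0.25, 0.21 and 0.27. EPS8 lay between −0.023 and 0.046 with any 1 library left out and changed sign with library totals (−0.025), without Empty 3 (−1.6e-05), without sgZHX3-3 library 1 (−0.023), with Empty 2 and 3 left out (−0.017) and after an offset for gene span (−0.087), and ESPN changed sign with Empty 2 and 3 left out (−0.11); the cause was not tested. Ranking by the longest transcript kept 6 of 10 places.

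Over all genes, 904 were higher and 1272 lower with library totals, against 1151 and 807 with TMM, so the direction with more calls turned. There were 516 higher and 239 lower with the replicate number as a block, 209 and 40 without Empty 2 and 3, 467 and 194 at an adjusted p below 0.01, and 60 and 46 with a log2 limit of 1. With any 1 library left out 474 to 1792 were higher and 184 to 1499 lower. Among other brush border genes, 5 were higher with the block, 2 without Empty 2 and 3, 6 with the span offset (1 lower), 5 at an adjusted p below 0.01 and 2 with the log2 limit; with any 1 library left out 5 to 14 were higher and 0 to 3 lower. The fit without Empty 2 and 3 has a lone Empty library, assumed to vary like the others, and tests with less precision.

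Same-numbered libraries shared only a number. The correlations of their deviations from the group means were −0.138, 0.0685 and −0.142 for numbers 1, 2 and 3. No library correlated best with the library of its own number in the other group. Under the block 5 of the 10 genes were higher and 1 lower, as without it. The low counts of MEP1B (33 to 231) limit its precision.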
